A study of Mus musculus with 39 samples.

Results

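The genes of sterol and fatty acid synthesis were followed across sorted mouse lung cells. They were a fixed list of 33 symbols, and all 33 matched a row of the count table, which held 43430 gene IDs, 25194 of them with at least 1 count. By role, 19 encode enzymes of the sterol pathway, 6 encode regulators of that pathway or proteins that handle sterol, and 8 encode enzymes of fatty acid synthesis and desaturation. All mice were C57BL/6J, and 39 libraries of polyA-selected RNA, prepared from 3 ng of total RNA each, fell into 8 groups. The 4 monocyte groups, of 5 libraries each, were sorted lung monocytes of naive mice, young or old, given saline or ISRIB, a compound that counters the integrated stress response by acting on the translation factor eIF2B. The 4 macrophage groups were Siglec F-low, monocyte-derived alveolar macrophages of mice given bleomycin, which injures the lung, again young or old and given saline or ISRIB, with 5 libraries each except young ISRIB macrophages, which had 4. Young mice were 8 to 12 weeks old by the sample labels but 3 to 5 months old by the series text, and old mice were over 18 months by the labels and 18 to 24 months by the text. After bleomycin, dosing was daily from day 7 and cells were taken on day 21; for naive mice no schedule is named. Every macrophage library comes from a bleomycin-treated mouse and every monocyte library from a naive one, so effects of cell type and of injury cannot be told apart.

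Animal cells build cholesterol from acetyl-CoA through the mevalonate pathway, in which early enzymes make isoprenoid units, squalene is formed and closed into lanosterol, and later enzymes trim lanosterol to cholesterol. The transcription factors SREBP-1 and SREBP-2 switch these genes and those of fatty acid synthesis on when membranes lack sterol: Scap escorts them from the endoplasmic reticulum, and Insig proteins hold them back. In the lung, alveolar macrophages take up and break down surfactant, a lipid-rich film, so that sterol and fatty acid supply and removal are both part of their work.

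Promoter sequences of 5 genes are shown because their transcripts took different courses between the cell types, as described below: Hmgcs1, Mvk and Fasn were higher in macrophages, Ggps1 was not called, and Elovl6 was lower. Each is a stretch before a RefSeq transcription start on GRCm38.p6, 5′ to 3′ on the gene's strand and outside annotated exons, with 2 motifs in capitals: TCACNCCAC, a form of the sterol regulatory element that SREBP binds, and CCAAT, the box of the factor NF-Y, in either orientation (CCAAT reads ATTGG on the other strand). The stretches are chr13:119690101-119690350 (plus strand) for Hmgcs1, chr5:114444061-114444268 (plus) for Mvk, chr11:120824548-120824797 (minus) for Fasn, chr13:14063490-14063603 (minus) for Ggps1 and chr3:129532136-129532256 (plus) for Elovl6.
Hmgcs1: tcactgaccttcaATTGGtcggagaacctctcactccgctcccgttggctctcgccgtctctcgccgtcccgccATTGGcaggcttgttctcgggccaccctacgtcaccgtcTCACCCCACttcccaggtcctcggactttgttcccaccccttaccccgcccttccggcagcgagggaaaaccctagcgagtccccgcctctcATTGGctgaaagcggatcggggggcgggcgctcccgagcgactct
Mvk: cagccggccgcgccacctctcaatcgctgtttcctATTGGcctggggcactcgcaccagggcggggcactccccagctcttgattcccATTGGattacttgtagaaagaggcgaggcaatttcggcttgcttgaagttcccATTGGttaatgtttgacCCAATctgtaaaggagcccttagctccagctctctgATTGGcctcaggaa
Fasn: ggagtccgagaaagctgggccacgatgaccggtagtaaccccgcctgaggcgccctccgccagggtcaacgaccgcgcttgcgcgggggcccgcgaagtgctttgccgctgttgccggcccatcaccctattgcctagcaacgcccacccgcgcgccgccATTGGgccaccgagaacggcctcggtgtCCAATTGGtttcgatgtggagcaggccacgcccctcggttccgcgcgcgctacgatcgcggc
Ggps1: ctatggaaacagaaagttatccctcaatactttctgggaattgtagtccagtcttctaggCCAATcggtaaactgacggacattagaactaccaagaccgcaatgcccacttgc
Elovl6: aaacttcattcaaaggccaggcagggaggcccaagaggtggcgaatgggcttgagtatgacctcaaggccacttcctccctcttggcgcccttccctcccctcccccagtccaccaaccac
The Hmgcs1 stretch held 1 sterol regulatory element and 3 CCAAT boxes, that of Mvk 5 CCAAT boxes and that of Fasn 3, of which 2 overlap. The Ggps1 stretch held 1 CCAAT box and that of Elovl6 none, but these stretches are shorter, at 114 and 121 bases against 250 for Hmgcs1 and Fasn, since bases inside annotated exons are not printed. Over the whole 250 bases before the start Ggps1 held 3 CCAAT boxes, as many as Hmgcs1 and Fasn, and Elovl6 held 0. Acaca, Acat2, Fads2 and Scap, all higher in macrophages, also held 0 there. The 5 genes shown are examples, and a link between the motif and the direction of change was not tested.

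RefSeq promoters, from 250 bases before to 50 after the start, were given for 26 of the 33 genes, and both strands were searched. CCAAT was present in 21 of the 26 (80.8%), against 41.1% of 27025 genes with a promoter and 42.7% of the 10000 that were also tested for expression. GGGCGG, the box of Sp1, was present in 21 (80.8%), against 38.2% of all and 66.8% of tested genes. CACGTG, an E-box, was present in 5 (19.2%), against 8.09% and 11.7%. TCACNCCAC was present in 1, Hmgcs1 (3.85%), against 1.44% and 1.34%. These matches are letters in a window, and an absent match says nothing about binding of the factor.

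Levels are counts per 1000000 counts of a library (CPM), and totals ran from 4595331 to 16056708 with a median of 8628240. Differences were tested with edgeR's quasi-likelihood test across all genes, and a gene was called when its Benjamini-Hochberg adjusted p was under 0.05. Log2 fold changes are given with their standard error (SE). The labels do not say that replicates came from separate animals, so p-values measure the spread between these samples, which may be technical. Summed marker lists followed the sorts. The 8 monocyte markers, Ly6c2 and Ccr2 among them, summed to 5842 to 9813 CPM in monocyte libraries and 467 to 1022 CPM in macrophage libraries. The 6 macrophage markers, Siglecf and Mertk among them, summed to 472 to 686 and 4555 to 6086 CPM in the same order. Fcgr1 of the latter list did not separate the cells. It averaged 156 and 138 CPM in young and old saline macrophages, and 133 and 154 CPM in young and old saline monocytes. In bulk libraries such as these, fewer cells of a type and less RNA per cell cannot be told apart. Parts of some genes repeat in pseudogenes or lie under other genes, and the strand setting of the counting is not given, so their values are less certain. More than 10% of the 50-base windows of the longest transcript also occur in transcripts of other genes for Acaca (52.6%), Acat2 (45.9%), Fdft1 (30.7%), Idi1 (30.5%), Hmgcs1 (13.6%), Scap (13.1%), Ggps1 (11.8%) and Fdps (11.7%). More than 10% of exon bases overlap another gene on the same strand for Fdps (26.7%) and Tm7sf2 (12.1%, with Vps51). On the opposite strand this holds for Fdft1 (18.3%, with Ctsb), Scap (13.2%) and Hmgcs1 (12.1%).

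The first comparison, of saline macrophages with saline monocytes averaged over both ages, asks how these genes differ between lung monocytes and the monocyte-derived macrophages of the injured lung. Of the 33 genes, 31 were higher in macrophages, Elovl6 was lower, and Ggps1 was not called. Over all 13587 genes tested, 70.0% were called, 35.8% as higher and 34.2% as lower. The median log2 fold change was 1.57 for the 33 genes and -0.00 for all genes. In 21 of the 33 genes, every one of the 10 saline macrophage libraries lay above every one of the 10 saline monocyte libraries, a separation seen in 14% of all genes tested. By age, 30 genes were called in young mice (60.0% of all genes), each of them higher in macrophages, and 30 in old mice (57.0% of all genes), of which 29 were higher. For none of the 33 did the age effect differ between the cell types at an adjusted p under 0.05 (smallest 0.516, edgeR; 0.25% of all genes were called).

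**Figure D1:**
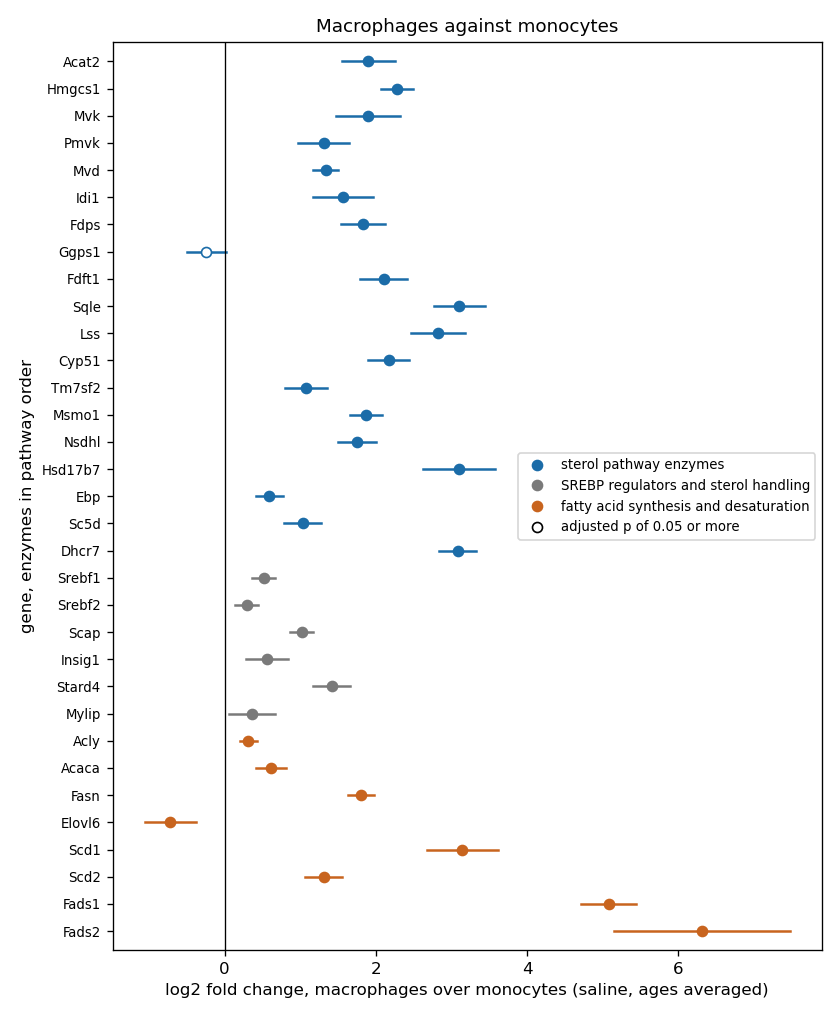
Log2 fold change of macrophages over monocytes in saline mice (x axis) for the 33 genes (y axis, enzymes in pathway order), with 95% intervals as lines and colours for the roles. Of the 33 points, 31 lie right of 0 and are called, the point of Ggps1 is open, and Elovl6 lies at -0.72.

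Among the sterol enzymes, 18 of 19 were higher in macrophages, with a median log2 fold change of 1.87. Hmgcs1 makes the HMG-CoA from which mevalonate is formed. Its level in the 10 saline macrophage libraries ran from 185 to 318 CPM with a median of 225, and in the 10 saline monocyte libraries from 35 to 65.3 with a median of 48.4, so the ranges did not overlap. The log2 fold change was 2.27 ± 0.11 (SE; adjusted p 2.96e-21, edgeR), or 4.84-fold. The kinases that follow, Mvk and Pmvk, were higher by 1.90 ± 0.22 and 1.31 ± 0.17 on the log2 scale, with 1 or more libraries of the cell types overlapping for both. Mvd, which decarboxylates the product, was higher by 1.34 ± 0.09 (SE), from 115 to 160 CPM in macrophages and 43.3 to 72.6 in monocytes. Idi1, the isomerase, was higher by 1.57 ± 0.20 and Fdps, which joins the units into farnesyl diphosphate, by 1.83 ± 0.15 (SE). Acat2, a cytosolic thiolase at the head of the pathway, was higher by 1.90 ± 0.18 (SE).

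At farnesyl diphosphate the pathway branches. Ggps1, which leads away from sterols to the geranylgeranyl group used to anchor proteins, ran from 10.3 to 18.6 CPM in saline macrophages (median 16.4) and from 12.4 to 22.6 in saline monocytes (median 20.4), and the ranges overlapped. Its log2 fold change was -0.24 ± 0.13 (SE; adjusted p 0.0975, edgeR; 95% interval -0.50 to 0.01). It was called lower without young saline monocyte replicate 4 (adjusted p 0.0333), without old saline monocyte replicate 1 (0.0379) and with the libraries of lowest and highest total omitted (0.0357). Fdft1, which commits farnesyl units to squalene, was higher by 2.10 ± 0.16 (SE), with 49.7 to 67.6 CPM in macrophages and 7.37 to 24.4 in monocytes.

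After squalene, fold changes ranged widely. Sqle, the squalene epoxidase, ran from 114 to 164 CPM in saline macrophages and from 4.75 to 25.4 in saline monocytes, and was higher by 3.11 ± 0.17 (log2, SE; adjusted p 2.36e-19, edgeR). Lss, which closes the ring to lanosterol, ran from 29.7 to 52.8 CPM against 3.48 to 10.7 and was higher by 2.82 ± 0.18 (SE). None of these ranges overlapped between the cell types. Cyp51, the lanosterol demethylase, was higher by 2.17 ± 0.14, with 160 to 242 CPM in macrophages and 30.8 to 66.6 in monocytes. Msmo1, Nsdhl and Hsd17b7 together remove the methyl groups at carbon 4 of the sterol, and were higher by 1.87 ± 0.11, 1.75 ± 0.13 and 3.10 ± 0.24 (log2, SE). Hsd17b7 had 0 CPM in young saline monocyte replicate 4, the library of lowest total, and at most 7.53 CPM in the other saline monocyte libraries, against 24.3 to 54.1 in macrophages.

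The last enzymes were uneven. Dhcr7, the reductase of the final step of one route to cholesterol, ran from 84.2 to 105 CPM in saline macrophages and from 6.98 to 16.3 in saline monocytes, and was higher by 3.09 ± 0.12 (SE; adjusted p 1.24e-23, edgeR). Ebp, the isomerase that moves a ring double bond, was higher by 0.59 ± 0.09, with 55.4 to 68.4 CPM in macrophages and 34.4 to 61.1 in monocytes, which overlapped. Sc5d, a desaturase, was higher by 1.03 ± 0.12 (log2, SE). Tm7sf2, a sterol reductase that stands earlier, after Cyp51 in the pathway order, was higher by 1.08 ± 0.14 (log2, SE). Differences between these fold changes were not tested. Summed over the 19 enzymes, the level averaged 1508 ± 148 CPM (SD, n = 5) in young and 1337 ± 69.5 (SD, n = 5) in old saline macrophages, and 419 ± 65.6 (SD, n = 5) and 409 ± 37.3 (SD, n = 5) in young and old saline monocytes, which came from naive mice.

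**Figure D2:**
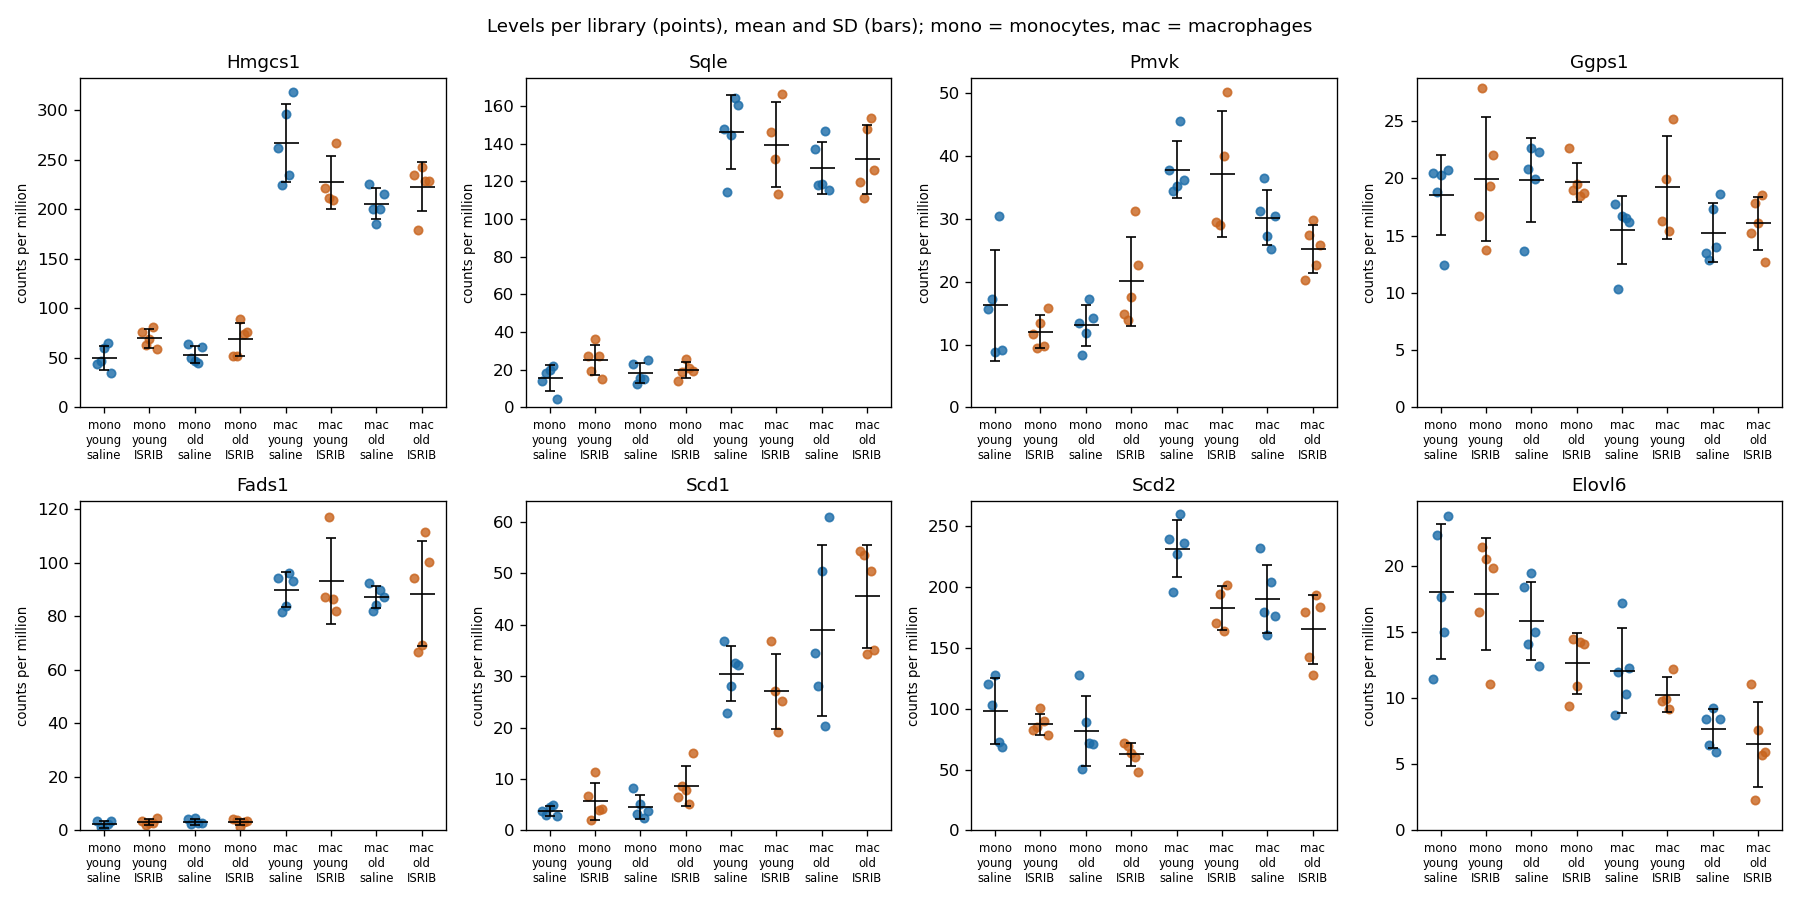
Level in CPM (y axis, from 0) of 8 genes in each of the 39 libraries (points; saline blue, ISRIB orange), with the group mean and SD as bars, by cell type, age and treatment (x axis). Hmgcs1, Sqle and Fads1 form separate bands for macrophages and monocytes, whereas Ggps1 and Elovl6 do not.

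Of the regulators, 6 of 6 were called higher in macrophages, where 35.8% of all genes were. Their median log2 fold change of 0.54 was below that of the enzymes, though Stard4 lay above several enzymes, and the roles were not tested against each other. Srebf2, which encodes SREBP-2, ran from 186 to 277 CPM in saline macrophages and from 144 to 241 in saline monocytes, and was higher by 0.29 ± 0.08 (log2, SE; adjusted p 0.00123, edgeR). Srebf1, which encodes the SREBP-1 forms, was higher by 0.52 ± 0.08, and Insig1, the retention protein and itself an SREBP target, by 0.56 ± 0.14 (SE). The ranges of all 3 overlapped between the cell types. Scap, the escort, was higher by 1.02 ± 0.08, with 58.8 to 80.7 CPM against 29.1 to 43.6, and Stard4, a carrier that moves cholesterol between membranes, by 1.42 ± 0.12, with 58.4 to 99.6 CPM against 17 to 38, neither with any overlap. Mylip, also called Idol, is a ubiquitin ligase that limits lipoprotein uptake and is a target of the sterol-sensing receptor LXR. It was higher by 0.36 ± 0.15 (SE; adjusted p 0.0350, edgeR), and this call was lost with offsets for GC content and length (adjusted p 0.137), with the libraries of lowest and highest total omitted (0.0752) and in 7 of 20 fits without 1 library (0.0513 to 0.113; young monocyte replicates 3 and 5, old monocyte 3 and 4, young macrophage 2 and 5, and old macrophage 3).

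Among the 8 fatty acid genes, 7 were higher in macrophages and 1 was lower, with a median log2 fold change of 1.56. The desaturases of polyunsaturated fatty acids changed most. Fads1 ran from 81.7 to 96.1 CPM in saline macrophages and from 0.579 to 4.67 in saline monocytes, and was higher by 5.08 ± 0.19 (log2, SE; adjusted p 6.36e-25, edgeR), or 33.8-fold. Fads2, its partner gene, ran from 3.70 to 11.7 CPM in saline macrophages and from 0 to 0.392 in saline monocytes, whose 10 libraries held 9 counts in all (7 in young and 2 in old mice). Its log2 fold change of 6.31 ± 0.59 (SE) rests on those few monocyte counts. In old ISRIB macrophages Fads2 measured 11.2, 2.40, 0.375, 10.4 and 5.17 CPM in replicates 1 to 5, so that replicate 3 lay within the range of the monocytes.

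The stearoyl-CoA desaturases put the double bond into saturated fatty acids. Scd1 ran from 20.4 to 61.0 CPM in saline macrophages and from 2.37 to 8.23 in saline monocytes, and was higher by 3.14 ± 0.24 (log2, SE; adjusted p 8.16e-15, edgeR). Scd2 ran from 160 to 259 CPM against 50.8 to 127 and was higher by 1.31 ± 0.12 (SE), and Scd2 was the more abundant of the pair per kilobase of exon in both cell types (38.6 against 7.09 CPM per kilobase in saline macrophages and 16.5 against 0.857 in saline monocytes). Only 4.66% of the windows of Scd1 and 4.01% of those of Scd2 were shared with other genes. Fasn, the fatty acid synthase, ran from 162 to 225 CPM against 44.0 to 72.8 and was higher by 1.81 ± 0.09 (SE). The enzymes that feed it were closer to even: Acly, which makes cytosolic acetyl-CoA, was higher by 0.31 ± 0.06, and Acaca, which makes malonyl-CoA, by 0.61 ± 0.10 (log2, SE), with overlapping libraries for both. Acly had the highest level per kilobase of all 33 genes in macrophages (75.5 ± 4.90 CPM per kilobase, SD, n = 10) and in monocytes (64.5 ± 5.37, SD, n = 10).

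Elovl6, which lengthens palmitate to stearate, went the other way. It ran from 5.95 to 17.2 CPM in saline macrophages (median 9.02) and from 11.5 to 23.9 in saline monocytes (median 16.4), and was lower in macrophages by -0.72 ± 0.17 (log2, SE; adjusted p 3.94e-04, edgeR), with overlapping ranges.

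Of 20 other genes of sterol synthesis and SREBP control, 16 were tested and 10 were higher in macrophages, with none lower. Their median log2 fold change was 0.62. Over all genes tested, 35.8% were called as higher and 34.2% as lower, the shares to set beside the counts in this paragraph. Of 29 other fatty acid genes, 23 were tested, 15 were higher and 3 were lower. Lpin1, a phosphatidate phosphatase, was higher by 1.71 ± 0.18, and Acss2, which makes acetyl-CoA from acetate, was lower by -1.30 ± 0.22 (log2, SE). Of 16 genes of LXR and cholesterol handling, all were tested, 10 were higher and 4 were lower. The cholesterol exporters Abca1 and Abcg1 were higher by 3.86 ± 0.16 and 3.44 ± 0.12 (log2, SE). Genes of sterol export and genes of sterol synthesis were thus both higher in the same libraries. Markers of other cells differed too. Of 12 alveolar epithelial markers 9 were tested, 7 were higher and 2 were lower in macrophages, with sums of 191 to 245 CPM in saline macrophages and 540 to 611 CPM in saline monocytes, and Cxcl15, Krt8 and Sftpd were at 0 in the latter. The monocyte sum was mostly Napsa, at 358 to 469 CPM, and Abca3, at 90.1 to 235 CPM, which ran from 39.4 to 93.5 and from 109 to 150 CPM in saline macrophages. Sftpc went the other way, from 0 to 0.653 CPM in saline monocytes and from 3.19 to 7.74 CPM in saline macrophages. Proliferation markers were also higher in macrophages, 8 of 8 called, with sums of 245 to 628 CPM in saline macrophages and 95.1 to 127 in saline monocytes, and their part in the differences above was not tested.

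The second comparison asks whether these genes differ with age. In macrophages, with the treatments averaged, 2 of 33 genes were called, Pmvk as lower and Scd1 as higher in old mice, where 4.86% of 12171 genes tested were called. At an unadjusted p under 0.05 there were 8 of 33, of which 7 had estimates below 0, where 17.8% of all genes passed. Of the 33 estimates, 26 were below 0, with a median of -0.06, against 0.00 for all genes. In saline mice alone 0 of 33 were called (1.16% of all genes), with 3 of 33 at an unadjusted p under 0.05 (12.7% of all genes), and in ISRIB mice alone 0 of 33 (0.937% of all genes), with 5 of 33 at an unadjusted p under 0.05 (12.2% of all genes).

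Pmvk, the phosphomevalonate kinase, measured 37.7, 34.4, 35.1, 45.6 and 36.1 CPM in replicates 1 to 5 of young saline macrophages and 31.3, 36.5, 27.3, 25.1 and 30.5 in old saline macrophages. With ISRIB it measured 29.4, 29, 39.9 and 50.1 CPM in the 4 young libraries and 20.2, 27.3, 29.7, 22.6 and 25.8 in the 5 old ones. Of the 10 old libraries, 6 lay below all 9 young ones, and the 2 ages overlapped. The log2 difference was -0.42 ± 0.11 (SE; adjusted p 0.0207, edgeR). The call was lost without young ISRIB macrophage replicate 4, the highest library (-0.33, adjusted p 0.0654), and when all 39 libraries shared 1 fit (-0.43, adjusted p 0.224).

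Scd1 measured 36.9, 22.9, 28.1, 32.5 and 32.1 CPM in young saline macrophages and 34.5, 28, 50.4, 20.4 and 61.0 in old saline macrophages. With ISRIB it measured 36.8, 27, 19.1 and 25.2 CPM in young and 54.2, 53.6, 34.2, 50.5 and 35.1 in old macrophages. Of the 10 old libraries, 5 lay above all 9 young ones. The log2 difference was 0.56 ± 0.16 (SE, adjusted p 0.0420, edgeR). The call was lost in 12 of 19 fits without 1 library (adjusted p 0.0585 to 0.0976, edgeR). The libraries left out in these were young saline replicates 2, 3, 4 and 5, young ISRIB 2, 3 and 4, old saline 3 and 5, and old ISRIB 1, 2 and 4. The call was also lost with a replicate block (0.0594) and when all 39 libraries shared 1 fit (0.190). Scd2, its neighbour on chromosome 19, had a difference of -0.19 ± 0.09 (SE; adjusted p 0.269, edgeR), opposite in sign to that of Scd1.

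Elovl6 measured 8.73, 12.0, 17.2, 10.3 and 12.3 CPM in young saline and 8.47, 6.44, 9.31, 5.95 and 8.45 in old saline macrophages. With ISRIB it measured 9.83, 9.98, 9.17 and 12.2 CPM in young and 11.1, 2.28, 7.62, 5.68 and 5.94 in old macrophages. Of the 10 old libraries, 8 lay below all 9 young ones. The log2 difference of -0.64 ± 0.20 (SE) was not called (adjusted p 0.0688, edgeR), but it was called by DESeq2 (0.0448), without a filter on low counts (0.0387) and without old ISRIB macrophage replicate 1 (0.0190).

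The other genes with an unadjusted p under 0.05 were Acaca, Fasn, Hmgcs1, Mvk and Scd2, all with estimates below 0. Hmgcs1 was at 261, 224, 296, 235 and 318 CPM in young saline macrophages and at 225, 200, 185, 200 and 216 in old saline macrophages. The lowest young library lay between the highest old ones, so the groups overlapped in 1 library of each. The saline difference was -0.33 ± 0.10 (log2, SE; adjusted p 0.126, edgeR), and with ISRIB it was -0.03 ± 0.11 (adjusted p 0.945). The old and young effects of ISRIB on Hmgcs1 differed by 0.30 ± 0.15 (log2, SE), which was not called either (adjusted p 0.954). By role, 15 of 19 sterol enzymes, 4 of 6 regulators and 7 of 8 fatty acid genes had estimates below 0.

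**Figure D3:**
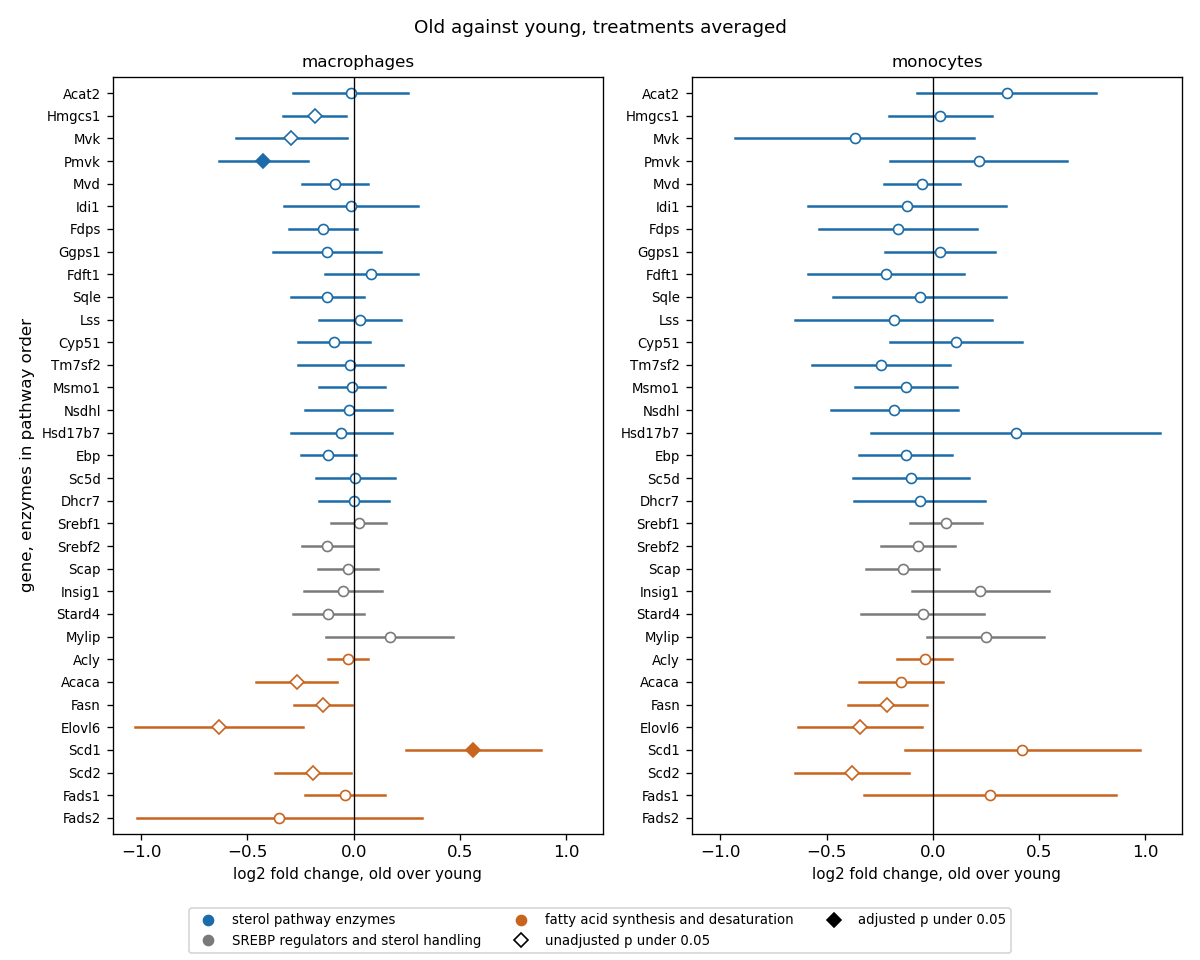
Log2 fold change of old over young (x axis) with the treatments averaged, in macrophages (left) and monocytes (right), for each gene (y axis), with 95% intervals; filled diamonds are called and open diamonds have an unadjusted p under 0.05. In macrophages Pmvk lies at -0.42 and Scd1 at 0.56, and no gene is called in monocytes, where Fads2 was not tested.

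In monocytes 32 of the 33 genes were tested, Fads2 being too low, and 0 were called by edgeR or DESeq2 with the treatments averaged (0.123% of 12170 genes tested were called). At an unadjusted p under 0.05 there were 3, all with estimates below 0, where 8.24% of all genes passed: Scd2 at -0.38 ± 0.14, Elovl6 at -0.34 ± 0.15 and Fasn at -0.21 ± 0.10 (log2, SE). Scd1, called in macrophages, was not among them, at 0.42 ± 0.28 (SE). In macrophages these 4 genes had -0.19, -0.64, -0.15 and 0.56, and only Scd1 was called there. The other members are not set side by side here, and agreement between the cell types was not tested.

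Other genes of the lists also differed with age in macrophages, where 4.86% of all genes tested were called. Of the 16 other sterol genes tested, 1 was called lower and 1 higher. The latter was Por, which passes electrons to Cyp51 and Sqle, at 0.41 ± 0.08 (log2, SE). Of the 22 other fatty acid genes tested, 3 were called and higher, among them Dgat1, which completes triglycerides, by 0.58 ± 0.11 and Elovl5, an elongase of polyunsaturated fatty acids, by 0.33 ± 0.09 (log2, SE). Of 16 LXR and cholesterol handling genes, Ch25h, which makes 25-hydroxycholesterol, was higher by 0.83 ± 0.20 and Arl4c lower by -0.42 ± 0.08 (SE).

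Markers of other cells moved with age in the same macrophage libraries, where 4.86% of all genes tested were called. All 6 B cell markers were called higher in old macrophages, with sums of 5.22 to 25.7 CPM in the 9 young and 15.1 to 450.2 CPM in the 10 old libraries, most of it Ighm, and no marker at 0. Markers of mature alveolar macrophages were called higher in 7 of 10 genes, Marco and Siglecf among them. Their sums were 4259 to 7711 CPM in young and 4328 to 13490.5 CPM in old libraries, most of it Chil3, with group means of 4498 to 8826 CPM. Car4 of this list averaged 330 CPM in young and 197 in old saline macrophages, and 199 and 210 with ISRIB. Il18 averaged 93.3 and 90.6 CPM in young and old saline macrophages, and 83.8 and 89.0 with ISRIB. Of 6 adipocyte markers 2 were tested and 1 was called higher, with sums of 0.129 to 4.12 CPM in young and 2.04 to 18.3 CPM in old libraries, and Adipoq and Cidea were at 0 in both. The dendritic cell sums were 6.88 to 14.1 CPM in young and 15.8 to 27.6 CPM in old libraries, with 1 of 5 markers tested called higher. The T and NK cell sums were 0.905 to 3.36 CPM (median 1.91) in young and 2.78 to 15.9 CPM (median 6.14) in old libraries, with 1 of 3 markers tested called higher and Ncr1 at 0 in young libraries. The endothelial sums were 1.40 to 8.29 CPM (median 2.69) in young and 4.39 to 13.8 CPM (median 7.29) in old libraries, with 0 of 2 markers tested called and 1 at an unadjusted p under 0.05 by edgeR. Of 5 neutrophil markers tested 1 was called higher, with sums of 57.7 to 95.1 CPM in young and 61.7 to 127 CPM in old libraries and Ly6g at 0 in both. Of 8 monocyte markers 2 were called higher and 2 lower in old macrophages, and Ccr2, the receptor by which monocytes leave the marrow, was among the latter at -1.27 ± 0.19 (log2, SE). The part of these cells in the age differences was not tested.

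The third comparison asks what ISRIB did to these genes. In macrophages, averaged over the ages, 0 of 33 genes were called by edgeR or DESeq2, where 0.830% of all genes were called by edgeR. At an unadjusted p under 0.05 there were 3, all with estimates below 0 (16.6% of all genes passed), and 21 of 33 estimates were below 0. Mvd had -0.24 ± 0.08, Scd2 -0.27 ± 0.09 and Fasn -0.19 ± 0.07 (log2, SE), with adjusted p of 0.127, 0.127 and 0.148 by edgeR. Scd2 measured 239, 196, 227, 259 and 236 CPM in young saline and 170, 194, 164 and 201 in young ISRIB macrophages, and the 2 groups overlapped in 1 library. It measured 232, 179, 160, 204 and 176 CPM in old saline and 179, 143, 127, 194 and 183 in old ISRIB macrophages, which overlapped widely. Without a filter on low counts Scd2 was called (adjusted p 0.0171). At each age alone, 0 of 33 genes were called by edgeR or DESeq2. At an unadjusted p under 0.05 by edgeR there were 2 of 33 in young and 1 of 33 in old mice. Over all genes, 1513 of 12171 passed in young and 1112 in old mice. EdgeR called 0 of all genes (0%) at either age. DESeq2 called 119 of 6425 genes given an adjusted p in young mice and 48 of 3340 in old mice. For the difference between the ages, 0 of 33 genes were called by edgeR or DESeq2, and both called 0 of all genes (0%). At an unadjusted p under 0.05 by edgeR there were 0 of 33, where 621 of 12171 genes passed.

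Markers moved with ISRIB in macrophages too: all 8 proliferation markers had estimates below 0 at an unadjusted p under 0.05, of which 1 was called. Their sums were 245 to 628 CPM in saline and 178 to 509 CPM in ISRIB libraries. Over all genes, 16.6% had an unadjusted p under 0.05 and 0.83% were called by edgeR. Siglecf and Mrc1, both of the macrophage marker list, were called higher, by 0.57 ± 0.12 and 0.35 ± 0.08 (log2, SE). Group means of Cd68, Itgax and Mertk of this list were also higher with ISRIB at both ages, and those of Fcgr1 were lower. Fcgr1 averaged 156 and 138 CPM in young and old saline macrophages, and 135 and 130 CPM with ISRIB. The part of all these markers in the values above was not tested. Of the LXR and cholesterol handling list, Nceh1, a cholesteryl ester hydrolase, was higher by 0.28 ± 0.06 (SE; adjusted p 0.0365, edgeR).

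In monocytes, averaged over the ages, 0 of 32 genes were called by edgeR or DESeq2, which called 0 (0%) and 1 of all genes. At an unadjusted p under 0.05 there were 6 of 32 by edgeR, all with estimates above 0, where 7.49% of all genes passed, and 21 of 32 estimates were above 0. They were Hmgcs1 (0.43 ± 0.12), Cyp51 (0.39 ± 0.16), Msmo1 (0.38 ± 0.12), Scap (0.19 ± 0.09), Fasn (0.40 ± 0.10) and Scd1 (0.77 ± 0.28; log2, SE), with adjusted p of 0.552 to 0.639. Fasn measured 50.5, 66.3, 72.8, 44.2 and 44.0 CPM in young saline and 67.8, 83.7, 94.2, 79.7 and 74.2 in young ISRIB monocytes. It measured 58.8, 48.7, 50.3, 49.6 and 56.0 CPM in old saline and 59.9, 56.2, 60.8, 74.6 and 62.6 in old ISRIB monocytes. At each age the ISRIB libraries were mostly higher, with an overlap of the groups.

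Hmgcs1 measured 43.5, 47.1, 59.9, 65.3 and 35 CPM in young saline and 76.4, 62.9, 68.8, 81.0 and 58.7 in young ISRIB monocytes. It measured 64.0, 49.6, 47.0, 44.5 and 60.6 CPM in old saline and 51.9, 51.8, 89.4, 73.6 and 76.5 in old ISRIB monocytes. Both pairs of groups overlapped.

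Scd1 measured 3.83, 2.99, 4.52, 5.01 and 2.87 CPM in young saline and 6.76, 2.13, 11.3, 4.07 and 4.12 in young ISRIB monocytes. It measured 8.23, 3.14, 5.13, 2.37 and 3.86 CPM in old saline and 6.43, 8.71, 7.89, 5.17 and 15 in old ISRIB monocytes. The highest values were those of young ISRIB replicate 3 and old ISRIB replicate 5. Sftpc, the surfactant protein of alveolar type II epithelial cells, was looked up beside Scd1 after its values were seen. It measured 9.47 CPM in that young and 12.6 CPM in that old library, and at most 0.904 CPM in the other 18 monocyte libraries. The part of epithelial RNA in the Scd1 values was not tested.

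Among the 16 other sterol genes tested, 4 had an unadjusted p under 0.05 (7.49% of all genes), all with estimates above 0 and none called. The B cell list had 3 of 6 and the T and NK cell list 2 of 5 genes with an unadjusted p under 0.05, all with estimates above 0, and the dendritic cell list had 2 of 6, also above 0. The B cell sums were 133 to 270 CPM (median 205) in saline and 146 to 227 CPM (median 180) in ISRIB monocytes. The T and NK cell sums were 4.12 to 51.0 CPM (median 12.9) in saline and 9.24 to 42.2 CPM (median 27.4) in ISRIB monocytes. The dendritic cell sums were 31.3 to 197 CPM (median 75.9) in saline and 62.7 to 236 CPM (median 145) in ISRIB monocytes. These sums overlapped between the treatments, and the part of these cells was not tested. The difference between the ISRIB effects in monocytes and macrophages was not tested.

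**Figure D4:**
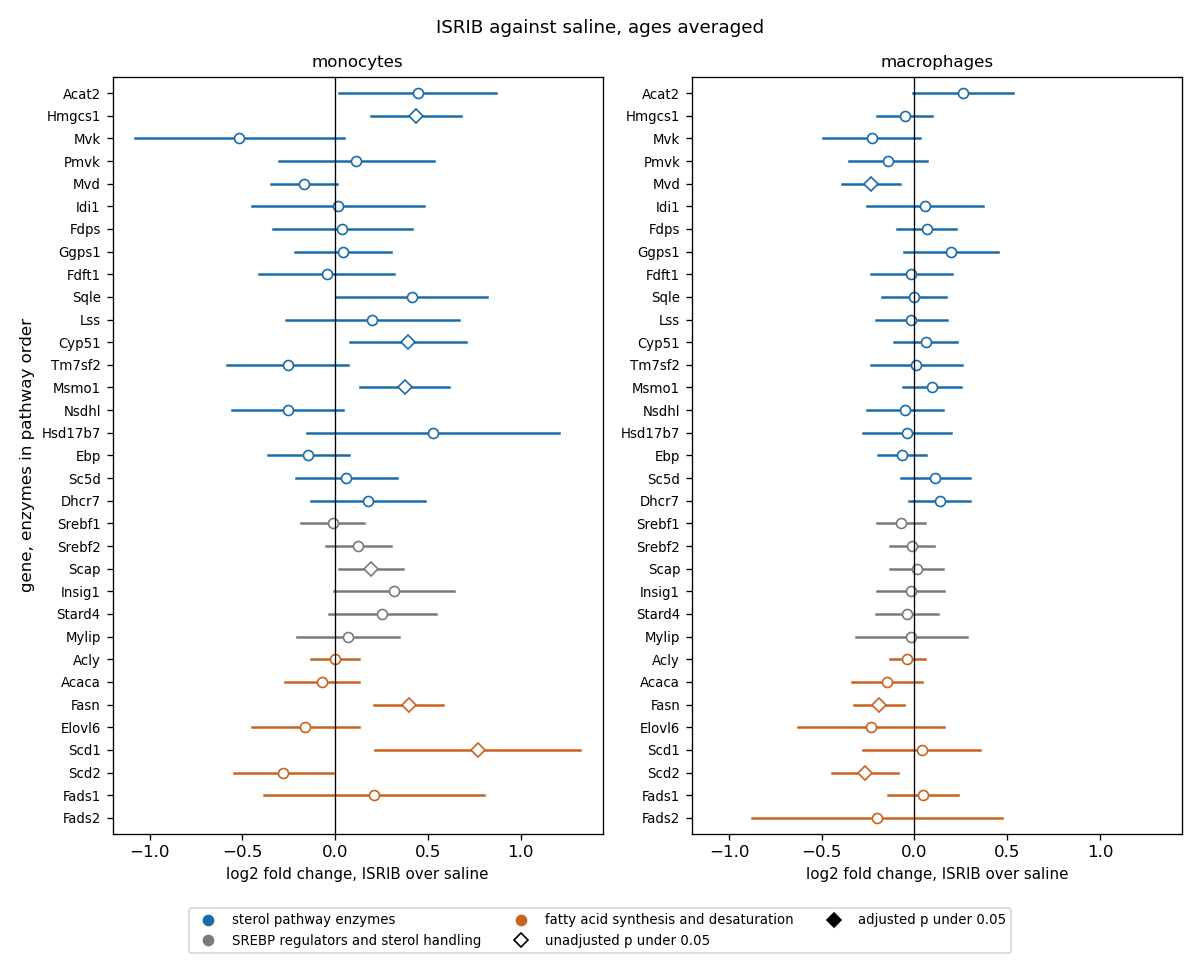
Log2 fold change of ISRIB over saline (x axis) with the ages averaged, in monocytes (left) and macrophages (right), for each gene (y axis), with 95% intervals; open diamonds have an unadjusted p under 0.05. The 6 diamonds in monocytes lie right of 0 and the 3 in macrophages left of it, and none is filled.

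Single libraries shifted many sterol enzymes together. In young ISRIB macrophages replicate 4 was the highest of 4 libraries in 16 of 19 enzymes, with a sum of 1733 CPM against 1293 to 1376 in the others. In young saline macrophages replicate 5 was the highest in 10 enzymes (1694 CPM) and replicate 2 the lowest in 11 (1287 CPM), and in old ISRIB macrophages replicate 2 was the lowest in 10 (1236 CPM). Among saline monocytes, young replicate 4, the library of lowest total, was the highest in 10 enzymes but the lowest in 3 (501 CPM). Young replicate 5 was the lowest in 8 and the highest in 3 (340 CPM), and old replicate 2 the lowest in 11 (353 CPM). These within-group shifts were smaller than the distance between the cell types, whose sums ran from 340 to 501 CPM in all 20 monocyte libraries and from 1236 to 1733 CPM in all 19 macrophage libraries.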

How the data were processed

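Per the submitters' processing notes, the reads were handled with bcl2fastq 2.19.1, FastQC, Trimmomatic 0.36, STAR 2.6.0 and HTSeq 0.11.2 on mm10. The annotation, and whether strand was used, is not given in the sources used here. The authors deposited unscaled integer counts for each Ensembl gene and library. IDs were matched to GENCODE vM21 (GRCm38, the assembly of mm10), and 42462 of 43430 had a symbol. CPM were counts scaled by library totals. Tests used edgeR 4.0.16 in R 4.3.3 with TMM scaling, filterByExpr (minimum count 10, minimum total 15) and a mean per group. They were fitted to 19 macrophage libraries (12171 genes), 20 monocyte libraries (12170 genes) or, across cell types, all 39 (13587 genes). Only the comparisons of age in macrophages and of the cell types were also run on simulated data, with the same spread for every gene. The monocyte fit and the ISRIB comparisons were not simulated. The SE was derived from the test, as the absolute log2 fold change divided by the square root of the F statistic. Intervals are the estimate ± 1.96 SE and so are approximate. Alternatives were DESeq2 1.42.0 and its size factors, no filter, a replicate block, GC and length offsets, other library sets, and leaving out each library. Omitting the libraries of lowest and highest total was added after seeing the data. The lowest is a monocyte and the highest a macrophage library, so a fit to 1 cell type lost only 1 of them. The members and lists were chosen with earlier results of these data known. All 33 members could be named. Of the other lists, up to 5 called genes per comparison with the largest change and a mean of at least 5 CPM could be named, as could Abca1, Abcg1, Ch25h and marker genes; some genes of these lists are not reported here. Lists are described by counts and medians without a set test. Promoters are from RefSeq (GRCm38.p6). The libraries were grouped by their labels, which name no batch.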

Additional observations from a re-analysis of the deposited data

Results flagged for a closer look

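Within each group of 4 or 5 libraries, the highest or lowest CPM was set apart when its gap to the nearest library, divided by the range of the group, passed the 95% critical value of Dixon's test. Of 264 groups, 9 held such a value, and chance gives about 1 in 20. Hmgcs1 was low in old ISRIB macrophage replicate 2, at 179 CPM against 228 in the nearest library. Ggps1 was low in young saline monocyte replicate 4 (12.4 CPM, nearest 18.8) and in young saline macrophage replicate 2 (10.3 CPM, nearest 16.2), and high in old ISRIB monocyte replicate 1 (22.6 CPM, nearest 19.5). Mvk was high in young saline monocyte replicate 4, at 18.1 CPM against 6.08. Tm7sf2 was high in young saline macrophage replicate 3 (23.2 CPM, nearest 17.3) and Fads1 in young ISRIB macrophage replicate 2 (117 CPM, nearest 87.1). Fasn was high in young saline macrophage replicate 5 (225 CPM, nearest 187), and Acly in old saline macrophage replicate 3 (428 CPM, nearest 381).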

How the results depend on the processing

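Between the cell types, 31 to 32 of the 33 genes were called under the 7 other settings and 31 to 33 without 1 library, against 32. The age result in macrophages, with the treatments averaged, was less stable. Against 2 genes called, 1 was called with the replicate block and 0 with all 39 libraries in 1 fit. Without 1 library, 0 to 3 were called (0 with young ISRIB replicate 4 left out, 3 with its replicate 1 left out). The fit without the library of highest total, young saline replicate 5, is 1 of these and called 1. Without a filter on low counts, 1 gene was called for ISRIB in macrophages with the ages averaged (Scd2), 1 for age in saline macrophages (Hmgcs1) and 2 for age in ISRIB macrophages (Pmvk and Scd1), against 0 in each. For age in ISRIB macrophages the count without 1 library was 0 to 1, the 1 being Pmvk without young ISRIB replicate 1. Between the cell types at each age, the count ran from 29 to 32 in young and from 29 to 30 in old mice, against 30 in each. The other counts of genes of the list, including all in monocytes, stayed at 0. No log2 fold change between the cell types, averaged over the ages, changed sign.

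Counts over all genes moved more. For age in macrophages with the treatments averaged, 592 genes became 975 without a filter and 340 with all 39 libraries in 1 fit. For age in saline macrophages, 141 became 261 with DESeq2, 468 without a filter and 60 with all libraries, and in ISRIB macrophages 114 became 215, 405 and 50. Without 1 library these 3 counts ran from 415 to 723, from 47 to 289 and from 33 to 161. For ISRIB in macrophages with the ages averaged, 101 became 417 with DESeq2, 640 without a filter, 343 with the replicate block, 17 with all libraries and 13 to 649 without 1 library. For ISRIB at each age alone, 0 became 119 in young and 48 in old macrophages with DESeq2, 224 and 220 without a filter, 10 and 0 with the replicate block, 0 and 1 with all libraries, and 0 to 304 and 0 to 30 without 1 library; the difference between the ages went from 0 to 33 without a filter and 1 with the replicate block. For the age effect compared between the cell types, 34 became 142 with DESeq2, 76 without a filter, 56 with GC and length offsets, 19 with only the groups compared, 72 with the libraries of lowest and highest total omitted and 8 to 71 without 1 library. For ISRIB in monocytes with the ages averaged, 0 became 1 with DESeq2 and 2 with all libraries. For age in monocytes with the treatments averaged, 15 became 73 with DESeq2, 40 without a filter and 44 with all libraries. Without 1 library the count was 6 to 25, and it was 25 when the library of lowest total was left out. The cause was not tested.

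Deviations gave no sign that the replicate numbers pair the libraries, but values near 0 cannot exclude pairing or a batch shared by number. Same-numbered libraries of different groups had a median correlation of deviations of 0.00384 in macrophages (over 0.1 in 2 of 27 pairs) and -0.0142 in monocytes (4 of 30). Differently numbered libraries had 0.0015 (6 of 108) and -0.000953 (23 of 120). Restricting the promoter search to the 150 bases before the start left 19 genes with CCAAT, 19 with GGGCGG, 4 with CACGTG and 1 with TCACNCCAC. Depth limits Fads2 in monocytes, where no library held more than 5 counts.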
